A study of Mus musculus with 14 samples.

Results

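The Slc25a genes encode the mitochondrial carrier family. They were taken as every probe set whose gene symbol on the array platform begins with Slc25a, which gave 46 genes with 1 probe set each, out of 22206 tested probe sets that name 19505 gene symbols. Their RNA levels were read on 14 arrays of mouse hematopoietic progenitor cells (HPCs), the lineage-negative fraction of bone marrow, separated magnetically, cultured, and then transduced with a retrovirus. Per the labels, the donors were WT (Polgwt/wt), Het (Polgwt/mut) or Hom (Polgmut/mut) for a mutant allele of Polg, whose product copies and proofreads mitochondrial DNA. The Ctrl vector was MSCV-IRES-YFP, which carries a fluorescent marker alone, and the NMyc vector was MSCV-NMyc-IRES-YFP, which adds the proto-oncogene N-Myc under the retroviral promoter. Of the Ctrl groups, WT-Ctrl and Het-Ctrl hold 3 arrays each and Hom-Ctrl 2, and the NMyc group of each genotype holds 2. All 6 groups share the culture and a marker-bearing vector. The sources used here do not give ages, animals per sample, or whether marker-positive cells were sorted before RNA extraction. The stated purpose of the series was to ask how gene expression changes with N-Myc and with the gathering of somatic mutations in mitochondrial DNA.

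Mitochondrial carriers are membrane proteins, nearly all of the inner mitochondrial membrane, that exchange small solutes between the cytosol and the matrix: nucleotides, phosphate, amino acids, carboxylates, cofactors and iron. They link oxidative phosphorylation to the rest of the cell's metabolism, carry reducing equivalents across the membrane through the malate-aspartate shuttle, and bring in what is needed for haem and iron-sulfur cluster assembly in the matrix. They are encoded in the nucleus, so a Polg mutation does not alter their genes directly. N-Myc, like Myc, binds DNA with its partner Max, most often at the E-box CACGTG.

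Promoter windows are shown here for the members whose levels moved with NMyc and whose window holds that E-box, so that the sequence stands beside the values. Windows from 250 bases before to 50 bases after a transcript start, from RefSeq (GRCm38.p6), were found for 36 of the 46 members. CACGTG, which reads the same on both strands, occurred in the windows of 7 of the 36 members (19.4%) and of 2187 of 27025 genes (8.09%). Of the members with a window it occurred in 3 of 13 that rose, 1 of 5 that fell and 3 of 18 that were not called (Slc25a1, Slc25a14 and Slc25a31). The stretches below read 5′ to 3′ on the gene's strand, with the E-box in capitals. A gene with several windows was counted if any of them held the E-box. Slc25a15 has another window (chr8:22398572-22398871) that does not hold it. A match describes these letters and is not a measured binding site.
Slc25a13 (chr6:6217246-6217345, minus strand, E-box 125 bases before the start): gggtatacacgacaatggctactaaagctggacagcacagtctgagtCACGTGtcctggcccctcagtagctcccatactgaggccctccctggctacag
Slc25a15 (chr8:22398302-22398401, minus strand, E-box 77 bases before the start): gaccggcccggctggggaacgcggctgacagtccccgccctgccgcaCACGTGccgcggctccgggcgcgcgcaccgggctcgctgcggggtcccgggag
Slc25a33 (chr4:149774268-149774322, minus strand, E-box 8 bases before the start): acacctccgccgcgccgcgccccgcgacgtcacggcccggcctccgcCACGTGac
Slc25a36 (chr9:97111176-97111275, minus strand, E-box 187 bases before the start): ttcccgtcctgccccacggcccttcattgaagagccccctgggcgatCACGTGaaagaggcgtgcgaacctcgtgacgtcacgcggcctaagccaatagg

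Values are log2 levels as deposited, and differences are on that log2 scale with the standard error (SE) of a model fitted to all 14 arrays. A call is an adjusted p under 0.05 from limma with the Benjamini-Hochberg method over all 22206 probe sets. Counts of members at an unadjusted p under 0.05 are given without the share of all probe sets at that threshold, which was not counted. The array's negative control sets gave the dim reference, with medians of 4.39 to 4.87 and 95th percentiles of 7.15 to 8.0 per array. Of the 46 members, 40 stood above the negative median on all 14 arrays, 4 on some of them (Slc25a14, Slc25a27, Slc25a34 and Slc25a48) and 2 on none (Slc25a21 and Slc25a31). Above the negative 95th percentile stood 18 on all arrays, 12 of which were called for the averaged NMyc effect, and 16 on none. Of 6 matched progenitor markers, Kit, Cd34, Gata2 and Cd48 were above that percentile on all arrays, Meis1 on 6 of 14 and Flt3 on 0 (Flt3 was above the negative median on 7). Mycn read 7.43 to 7.76 on 7 Ctrl arrays and 12.15 to 12.38 on the NMyc arrays. On the array labelled Hom-Ctrl replicate 1 it read 9.77, between the 2 sets. The averaged calls, the calls in Hom and several named differences that rest on Hom-Ctrl are therefore also given without that array. The averaged differences of single members, the NMyc counts in role and marker lists and the counts of non-overlapping members include it.

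With NMyc, averaged over the genotypes, 16 of the 46 carriers rose and 5 fell. The called members are 45.7% of the family, against 33.6% of all probe sets, and 18.2% of all probe sets rose while 15.5% fell. The median difference over the 46 was 0.14, against −0.02 over all probe sets. The rises were led by both aspartate/glutamate carriers, by the ADP/ATP carrier Slc25a4 and by the folate carrier Slc25a32. Among the falls were the calcium-regulated ATP-Mg/phosphate carrier Slc25a24, the pyrimidine nucleotide carrier Slc25a36 and the iron carrier Slc25a28. In 15 members (32.6%) the 8 Ctrl and 6 NMyc arrays did not overlap, 12 with NMyc higher and 3 lower, against 17.1% of all probe sets (10.5% higher and 6.58% lower). Without the array labelled Hom-Ctrl replicate 1, 20 of these 21 were called, Slc25a25 was not, and Slc25a46 was added.

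**Figure D1:**
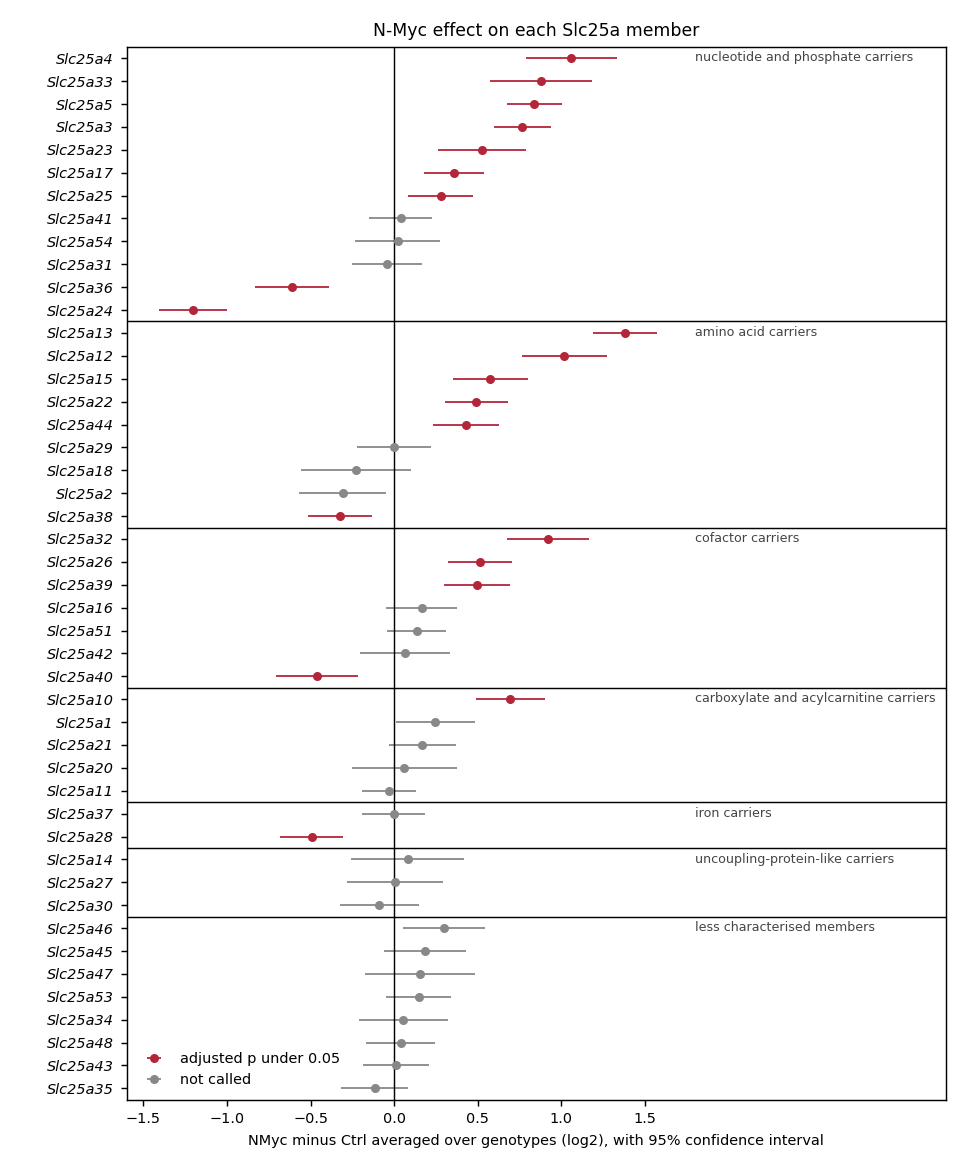
The NMyc minus Ctrl difference averaged over the 3 genotypes (log2, x axis) is plotted for each of the 46 members, grouped by role, as a point with its 95% confidence interval. Members with an adjusted p under 0.05 are red: 16 lie to the right of 0, up to Slc25a13 at 1.38, and 5 to the left, down to Slc25a24 at −1.20.

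**Figure D2:**
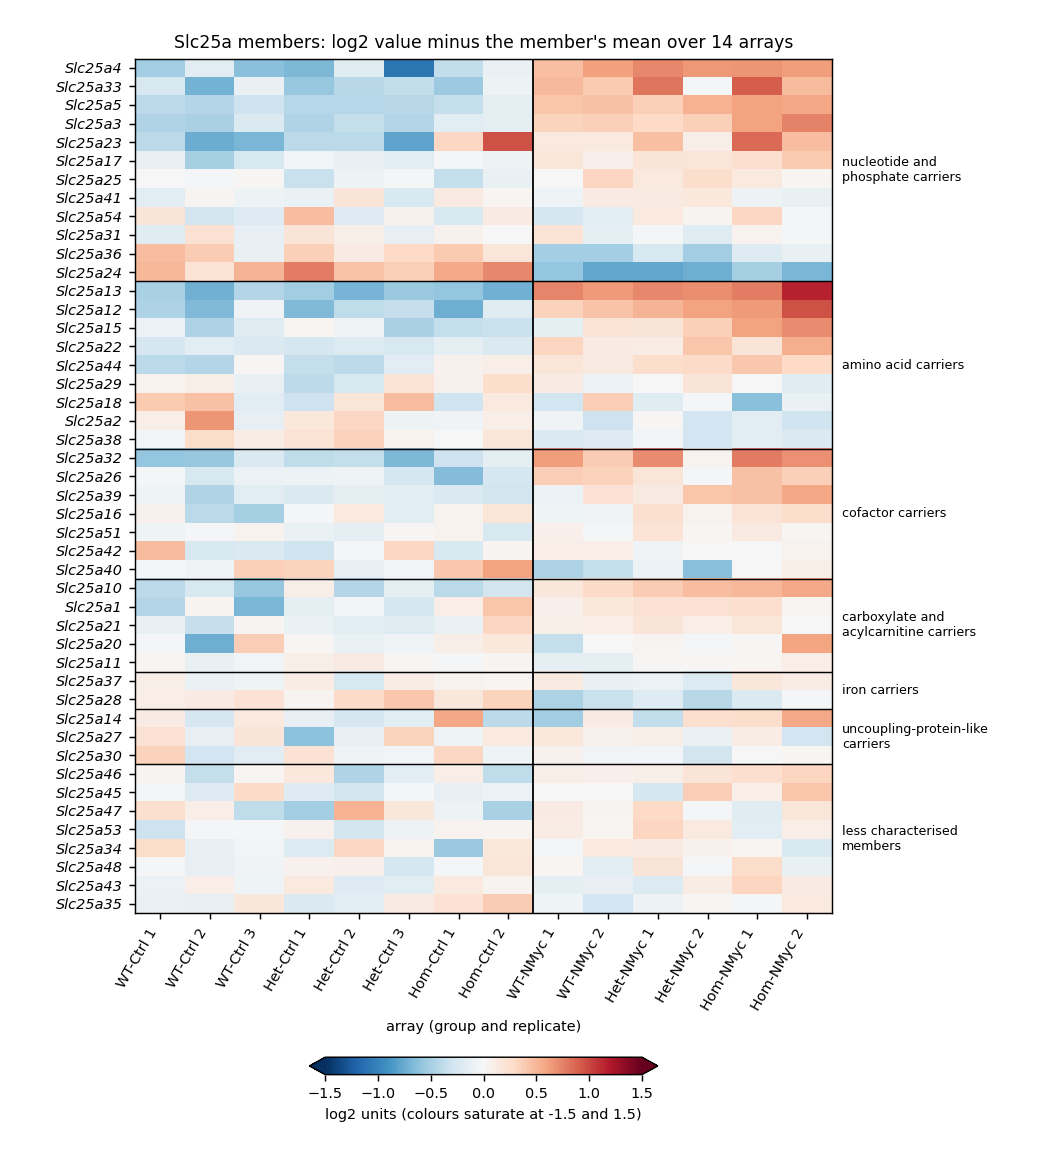
Each row is 1 of the 46 members and each column 1 of the 14 arrays, and the colour gives the log2 value minus that member's mean over the arrays. Slc25a4, Slc25a5, Slc25a3, Slc25a13 and Slc25a12 are above their means on all 6 NMyc arrays, and Slc25a24 is below its mean on all 6.

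The nucleotide and phosphate carriers move adenine and pyrimidine nucleotides and inorganic phosphate, the substrates and product of ATP synthesis. Of the 12 measured, 7 rose and 2 fell with NMyc, with a median difference of 0.32. For this and the other role lists, the share over all probe sets is 18.2% rising and 15.5% falling. Slc25a4 and Slc25a5 exchange cytosolic ADP for matrix ATP, Slc25a4 being the form of heart and muscle and Slc25a5 the form of dividing cells. Slc25a4 read 9.20, 9.55 and 9.10 in WT-Ctrl, 9.05, 9.54 and 8.63 in Het-Ctrl, and 9.36 and 9.63 in Hom-Ctrl. With NMyc it read 10.17 and 10.34 in WT, 10.44 and 10.37 in Het, and 10.39 and 10.34 in Hom. Every NMyc array was above every Ctrl array, and Slc25a4 rose by 1.06 (SE 0.13, 2.08-fold, adjusted p = 7.39e-06).

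Slc25a5 read 11.58, 11.53 and 11.66 in WT-Ctrl, 11.54, 11.54 and 11.56 in Het-Ctrl, and 11.61 and 11.82 in Hom-Ctrl. On the NMyc arrays it read 12.38 and 12.41 in WT, 12.33 and 12.49 in Het, and 12.57 and 12.54 in Hom. The vectors did not overlap, and the rise was 0.84 (SE 0.08, 1.79-fold, adjusted p = 4.63e-07). All 6 NMyc values lie above the 99th percentile of all tested values (11.9). Slc25a31, the testis form of the ADP/ATP carrier, was not above the negative median on any array (difference −0.04, adjusted p = 0.795).

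Slc25a3, which brings inorganic phosphate into the matrix for ATP synthesis, also separated the vectors. It ranged from 10.61 to 10.96 on the Ctrl arrays (median 10.70) and from 11.40 to 11.85 on the NMyc arrays (median 11.46). It rose by 0.77 (SE 0.08, 1.70-fold, adjusted p = 1.67e-06). Slc25a17, the peroxisomal carrier of adenine nucleotides and coenzymes, rose by 0.36 (SE 0.08, adjusted p = 0.00309), also without overlap of the vectors.

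Slc25a33 and Slc25a36 are the related carriers of pyrimidine nucleotides, and they were called in opposite directions. Slc25a33 read 5.81, 5.34 and 5.94 in WT-Ctrl, 5.49, 5.63 and 5.68 in Het-Ctrl, and 5.51 and 5.98 in Hom-Ctrl. Its NMyc values were 6.54 and 6.45 in WT, 6.86 and 6.02 in Het, and 6.96 and 6.52 in Hom. Each NMyc array was above each Ctrl array, by the smallest margin on Het-NMyc replicate 2, and the rise was 0.88 (SE 0.14, 1.84-fold, adjusted p = 0.000132). Slc25a33 was the called member that was above the negative 95th percentile on no array.
Slc25a36 read 8.82, 8.74 and 8.25 in WT-Ctrl, 8.71, 8.49 and 8.66 in Het-Ctrl, and 8.75 and 8.54 in Hom-Ctrl. The values with NMyc were 7.84 and 7.85 in WT, 8.11 and 7.84 in Het, and 8.17 and 8.25 in Hom. It fell by 0.61 (SE 0.10, 1.53-fold, adjusted p = 0.000187), and its groups touched at WT-Ctrl replicate 3 and Hom-NMyc replicate 2 without overlapping. Both genes have a CACGTG in the promoter window shown above.

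Slc25a23, Slc25a24 and Slc25a25 exchange ATP-Mg for phosphate under the control of cytosolic calcium, which they sense through EF-hands, and so change the size of the matrix nucleotide pool. The members of this subgroup did not move one way. Slc25a24 read 9.80, 9.51 and 9.81 in WT-Ctrl, 10.06, 9.72 and 9.66 in Het-Ctrl, and 9.87 and 10.01 in Hom-Ctrl. With NMyc it read 8.71 and 8.51 in WT, 8.52 and 8.57 in Het, and 8.79 and 8.61 in Hom. The NMyc arrays were all lower than the Ctrl arrays, with the largest fall in the family (1.20 on the log2 scale, SE 0.10, adjusted p = 1.02e-07).
Slc25a23 rose by 0.52 on average (SE 0.12, adjusted p = 0.00309). Its values in each genotype are given below, and a difference of its NMyc effect between genotypes was not called. Slc25a25 rose by 0.28 (SE 0.09, adjusted p = 0.0260). This call was lost in 6 of 22 alternatives, among them leaving out Hom-Ctrl replicate 1, Hom-NMyc replicate 1, WT-NMyc replicate 2 or Het-NMyc replicate 2, and over all 22 its adjusted p ranged from 0.0115 to 0.141. Slc25a41 (0.04) and Slc25a54 (0.02), which resemble them, were not called.

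**Figure D3:**
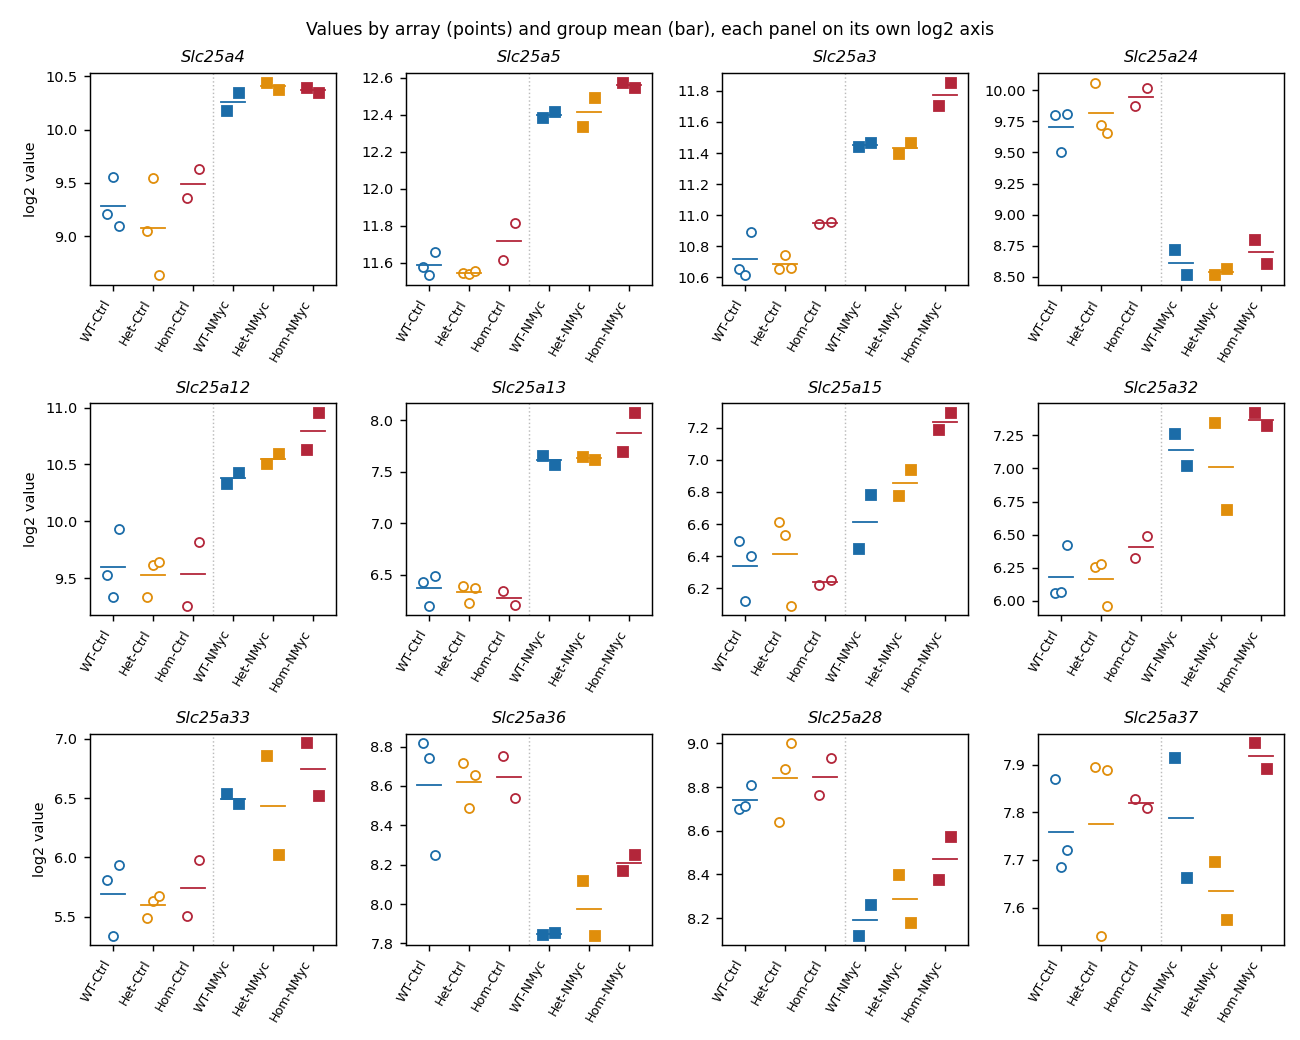
Log2 values of 12 members are plotted by group, with 1 point per array (open circles Ctrl, filled squares NMyc) and a bar at the group mean, each panel on its own axis. The vectors are apart in every panel except Slc25a15 and Slc25a37, and Slc25a24, Slc25a36 and Slc25a28 are lower with NMyc.

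Amino acid carriers feed the matrix side of the urea cycle, glutamate metabolism and haem synthesis. Of 9 measured, 5 rose and 1 fell, with a median of 0.43. Slc25a13 and Slc25a12 swap matrix aspartate for cytosolic glutamate, the step that drives the malate-aspartate shuttle. Slc25a13 read 6.43, 6.20 and 6.49 in WT-Ctrl, 6.40, 6.23 and 6.37 in Het-Ctrl, and 6.34 and 6.20 in Hom-Ctrl. On the NMyc arrays it read 7.66 and 7.57 in WT, 7.65 and 7.62 in Het, and 7.69 and 8.07 in Hom. The Ctrl values span less than the gap to the NMyc values, and the rise of 1.38 (SE 0.09, 2.61-fold, adjusted p = 1.65e-08) was the largest among the members. Slc25a13 also has an E-box in its window.

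Slc25a12 read 9.52, 9.33 and 9.94 in WT-Ctrl, 9.33, 9.62 and 9.64 in Het-Ctrl, and 9.26 and 9.82 in Hom-Ctrl. Its NMyc values were 10.33 and 10.42 in WT, 10.51 and 10.59 in Het, and 10.63 and 10.95 in Hom. It rose by 1.02 (SE 0.12, 2.02-fold, adjusted p = 5.27e-06), with no overlap between the vectors. Both aspartate/glutamate carriers were called in each genotype, but Slc25a12 lost its call in WT when either WT-NMyc array was left out (adjusted p up to 0.096).

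Slc25a15, the ornithine/citrulline carrier of the urea cycle, ranged from 6.09 to 6.61 on the Ctrl arrays (median 6.33) and from 6.44 to 7.29 on the NMyc arrays (median 6.86). It rose by 0.57 (SE 0.11, adjusted p = 0.000417), and the overlap came from the WT and Het arrays. Its paralog Slc25a2 was 0.31 lower without being called (SE 0.12, adjusted p = 0.0663). Slc25a22, a glutamate carrier, kept to 7.72 to 7.84 on the Ctrl arrays and read 8.09 to 8.52 on the NMyc arrays, a rise of 0.49 (SE 0.09, adjusted p = 0.000335). Its paralog Slc25a18 differed by −0.23 and was not called (SE 0.16, adjusted p = 0.301). Slc25a44, a carrier of branched-chain amino acids, rose by 0.43 (SE 0.09, adjusted p = 0.00156).

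Slc25a38 brings glycine into the matrix for the first step of haem synthesis. It read 8.53, 8.85 and 8.69 in WT-Ctrl, 8.78, 8.92 and 8.62 in Het-Ctrl, and 8.57 and 8.75 in Hom-Ctrl. The values with NMyc were 8.36 and 8.38 in WT, 8.53 and 8.29 in Het, and 8.40 and 8.36 in Hom. The vectors met at 8.53, and the fall was 0.32 (SE 0.09, adjusted p = 0.00966). Slc25a29, a carrier of basic amino acids, had a difference whose 95% confidence interval ran from −0.22 to 0.22.

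Cofactor carriers supply the matrix with folate or flavin, S-adenosylmethionine, glutathione, coenzyme A and NAD. Of 7 measured, 3 rose and 1 fell (median 0.16). Slc25a32, which has been assigned folate and FAD transport, read 6.06, 6.07 and 6.42 in WT-Ctrl, 6.25, 6.28 and 5.96 in Het-Ctrl, and 6.32 and 6.49 in Hom-Ctrl. With NMyc it read 7.26 and 7.02 in WT, 7.34 and 6.69 in Het, and 7.42 and 7.32 in Hom. The lowest NMyc array, Het-NMyc replicate 2, was still above all Ctrl arrays, and the rise was 0.92 (SE 0.11, 1.89-fold, adjusted p = 9.62e-06). Slc25a26, which imports S-adenosylmethionine for methylation in the matrix, rose by 0.51 (SE 0.09, adjusted p = 0.000295).

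The glutathione carriers Slc25a39 and Slc25a40 were called in opposite directions. Slc25a39 ranged from 9.95 to 10.34 on the Ctrl arrays and from 10.32 to 10.98 on the NMyc arrays, and it rose by 0.50 (SE 0.09, adjusted p = 0.000483). Slc25a40 read 6.96, 6.93 and 7.34 in WT-Ctrl, 7.32, 6.85 and 6.94 in Het-Ctrl, and 7.38 and 7.59 in Hom-Ctrl. On the NMyc arrays it read 6.51 and 6.62 in WT, 6.89 and 6.35 in Het, and 6.98 and 7.06 in Hom. The vectors overlap across genotypes, since both Hom-NMyc values exceed several WT-Ctrl and Het-Ctrl ones. They also overlap within Het, where NMyc replicate 1 (6.89) was above Ctrl replicate 2 (6.85). Slc25a40 fell by 0.46 (SE 0.11, adjusted p = 0.00444). Slc25a16 (0.16) and Slc25a42 (0.06), linked to coenzyme A, and the NAD carrier Slc25a51 (0.13) were not called.

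Carboxylate and acylcarnitine carriers move the intermediates of the tricarboxylic acid cycle and fatty acids bound for oxidation. Of 5 measured, 1 was called. Slc25a10, the dicarboxylate carrier that exchanges malate or succinate for phosphate, ranged from 8.28 to 8.93 on the Ctrl arrays (median 8.52) and from 9.02 to 9.41 on the NMyc arrays (median 9.27). It rose by 0.70 (SE 0.10, 1.62-fold, adjusted p = 2.93e-05). The citrate carrier Slc25a1, which supplies acetyl units for lipid synthesis, was 0.25 higher and not called (SE 0.11, adjusted p = 0.109). Slc25a11, the oxoglutarate/malate carrier that completes the malate-aspartate shuttle with the aspartate/glutamate carriers, differed by −0.03 (95% confidence interval −0.19 to 0.13). Slc25a20, the carnitine/acylcarnitine carrier of fatty acid oxidation, differed by 0.06 (−0.25 to 0.38).

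The iron carriers are Slc25a37 (mitoferrin 1), known for its need in red cell precursors, and Slc25a28 (mitoferrin 2), the more widely expressed form. Slc25a28 read 8.70, 8.71 and 8.81 in WT-Ctrl, 8.64, 8.88 and 9.0 in Het-Ctrl, and 8.76 and 8.93 in Hom-Ctrl. Its NMyc values were 8.12 and 8.26 in WT, 8.40 and 8.18 in Het, and 8.38 and 8.57 in Hom. The vectors did not overlap, and Slc25a28 fell by 0.49 (SE 0.09, 1.41-fold, adjusted p = 0.000349). Slc25a37 ranged from 7.54 to 7.90 on the Ctrl arrays and from 7.57 to 7.95 on the NMyc arrays, with a 95% confidence interval of −0.19 to 0.19 for the difference (adjusted p = 0.983). The 3 uncoupling-protein-like carriers (Slc25a14, Slc25a27 and Slc25a30) and the 8 less characterised members (Slc25a34, Slc25a35, Slc25a43, Slc25a45, Slc25a46, Slc25a47, Slc25a48 and Slc25a53) gave 0 calls in limma. At an unadjusted p under 0.05 there was 1 among these 11, Slc25a46, an outer membrane protein tied to mitochondrial shape, at 0.30 (SE 0.12, adjusted p = 0.0578).

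Within the genotypes, NMyc changed 13 members in WT, 14 in Het and 13 in Hom. In WT 10 rose and 3 fell (28.3% of the family, against 19.1% of all probe sets, of which 10.1% rose and 9.05% fell). In Het 11 rose and 3 fell (30.4% against 19.1%, with 11.1% up and 8% down). In Hom 12 rose and 1 fell (28.3% against 17.7%, with 10.7% up and 7.01% down). The member medians were 0.099, 0.19 and 0.12. Slc25a3, Slc25a4, Slc25a5, Slc25a10, Slc25a12, Slc25a13, Slc25a32 and Slc25a33 rose in all 3 genotypes, and Slc25a24 fell in all 3. Of these 9, Slc25a3, Slc25a5, Slc25a13 and Slc25a24 kept all 3 calls under each of the 22 alternatives, and the other 5 lost at least 1 call under some. Slc25a33 lost its call in 4 alternatives in WT, 3 in Het (0.42, adjusted p = 0.386, without Het-NMyc replicate 1) and 3 in Hom. Slc25a4 lost it in 1 in WT (without WT-NMyc replicate 2) and 4 in Hom (without the array labelled Hom-Ctrl replicate 1 or either Hom-NMyc array, or with 2 of the 3 runs of sample codes alone). Slc25a10 lost it in 1 in WT (without WT-NMyc replicate 2) and 3 in Het (without Het-Ctrl replicate 2 or either Het-NMyc array). Slc25a12 lost it in 2 in WT, and Slc25a32 in 1 in Het (without Het-NMyc replicate 1) and 1 in Hom. Members called in fewer genotypes also lost calls: Slc25a26 in 8 in WT, and Slc25a22 in 6 in Het and 6 in Hom. Slc25a23 lost its call in 3 in WT and 1 in Het, Slc25a28 in 2 in WT and 2 in Het. Slc25a44 lost it in 3 in Het, Slc25a36 in 1 in Het and Slc25a39 in 1 in Hom. Slc25a15 and Slc25a26 in Hom and Slc25a36 in WT kept theirs under all 22.

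Leaving out 1 array moved the counts of called members: in WT to 6 without WT-NMyc replicate 2 and to 8 without WT-NMyc replicate 1, in Het to 9 without either Het-NMyc array, and in Hom to 10 without the array labelled Hom-Ctrl replicate 1. The 3 members lost there were Slc25a4 (0.74, adjusted p = 0.132), Slc25a22 (0.59, adjusted p = 0.0834) and Slc25a33 (0.76, adjusted p = 0.15). The Hom effects of other members without that array were 0.74 for Slc25a5, 0.97 for Slc25a12, 1.68 for Slc25a13, −1.31 for Slc25a24, 0.99 for Slc25a15 and 0.78 for Slc25a39, all called. Those of Slc25a28 (−0.46) and Slc25a36 (−0.33) were not called.

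The size of the effect was close across genotypes for Slc25a5, at 0.81 in WT, 0.87 in Het and 0.84 in Hom. For Slc25a24 the differences were −1.09, −1.27 and −1.24. Slc25a12 gave 0.78, 1.02 and 1.25, and Slc25a13 gave 1.24, 1.30 and 1.61. Slc25a15 was called in Hom, at 1.00 (adjusted p = 0.002), and not at 0.28 in WT or 0.45 in Het. Slc25a39 was likewise called in Hom, at 0.75 (adjusted p = 0.00615), with 0.30 in WT and 0.45 in Het (adjusted p = 0.0598 in Het). Its call in Hom was lost in 1 of 22 alternatives, without Hom-NMyc replicate 2. Slc25a28 (−0.55, −0.55 and −0.38) and Slc25a36 (−0.75, −0.64 and −0.44) were called in WT and Het but not in Hom. All 21 members called for the average had 1 sign in the 3 genotypes, a count that the choice by the average favours, and so did 28 of all 46.

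**Figure D4:**
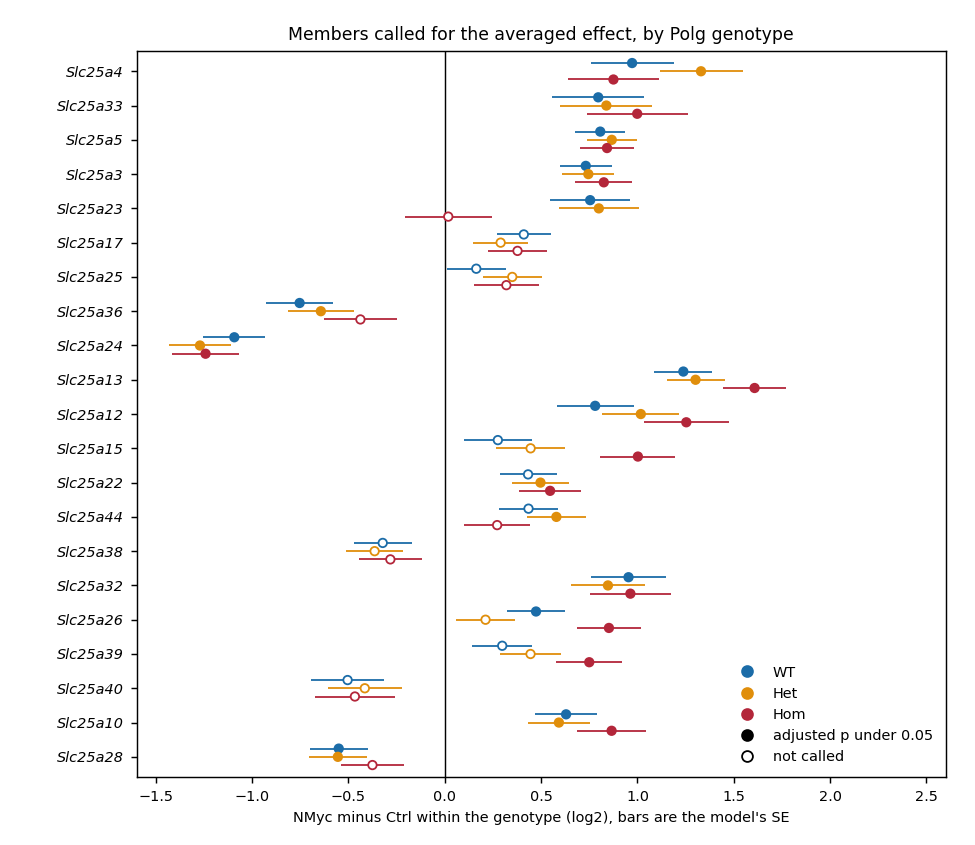
The NMyc minus Ctrl difference (log2, x axis) of the 21 members called for the average is plotted separately for WT, Het and Hom, with bars of 1 SE and filled points for an adjusted p under 0.05. Slc25a23 stands at 0.75 for WT, 0.80 for Het and 0.02 for Hom, and Slc25a15 runs from 0.28 in WT to 1.00 in Hom.

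Whether the NMyc effect differed between genotypes was tested directly. For Hom minus WT limma called 0 of the 46 members (0.0811% of all probe sets, 0.0721% with a larger effect in Hom and 0.00901% with a smaller one), with 2 at an unadjusted p under 0.05. These were Slc25a15, with a larger effect in Hom by 0.73 (SE 0.26, adjusted p = 0.412), and Slc25a23, with a smaller one by −0.74 (SE 0.31, adjusted p = 0.523). Next to them stood Slc25a39 at 0.45 (adjusted p = 0.618) and Slc25a1 at −0.59 (adjusted p = 0.587). Without the array labelled Hom-Ctrl replicate 1 these were 0.71, −1.06, 0.48 and −0.75, and without Hom-Ctrl replicate 2 that of Slc25a23 was −0.41, none of them called. For Hom minus Het limma also called 0 members (0.0315% of all probe sets, 0.0225% larger in Hom and 0.00901% smaller), with Slc25a26 at 0.64 (adjusted p = 0.553) and Slc25a23 at −0.78 (adjusted p = 0.62) the 2 at an unadjusted p under 0.05. Beyond these, Slc25a15 gave 0.56 (adjusted p = 0.724) and Slc25a29 −0.50 (adjusted p = 0.762). Without the array labelled Hom-Ctrl replicate 1 Slc25a26 gave 0.44, Slc25a23 −1.10, Slc25a15 0.54 and Slc25a29 −0.60, and without Hom-Ctrl replicate 2 Slc25a23 gave −0.46, again with no call. For Het minus WT limma called 0 members and 0% of all probe sets, and 0 members had an unadjusted p under 0.05. The smallest p-values there belonged to Slc25a4 (0.36) and Slc25a29 (0.23), and to Slc25a26 (−0.26) and Slc25a30 (−0.25). With 2 arrays in 4 of the groups these intervals are wide: that of Slc25a15 in Hom minus WT ran from 0.17 to 1.29.

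The question of what the Polg genotype does on its own was addressed with the Ctrl vector, where 1 carrier differed. Slc25a23 read 7.33, 6.99 and 7.05 in WT-Ctrl, 7.33, 7.33 and 6.95 in Het-Ctrl, and 8.05 and 8.69 in Hom-Ctrl. Both Hom-Ctrl arrays were above all 6 WT-Ctrl and Het-Ctrl arrays. Slc25a23 was higher in Hom than in WT by 1.24 (SE 0.21, 95% confidence interval 0.80 to 1.68, adjusted p = 0.00416), the 1 call among 46 members (2.17%, against 3.91% of all probe sets, 2.03% higher and 1.88% lower). It was higher in Hom than in Het by 1.17 (SE 0.21, adjusted p = 0.00877), again the 1 call (against 2.4% of all probe sets, 1.34% higher and 1.06% lower). These comparisons share the Hom-Ctrl arrays. Without the array labelled Hom-Ctrl replicate 1 the differences were 1.57 (adjusted p = 0.00362) and 1.49 (adjusted p = 0.00664). Without Hom-Ctrl replicate 2 they were 0.92 and 0.84, and neither was called (adjusted p = 0.0966 and 0.162).

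With NMyc, Slc25a23 read 7.88 and 7.88 in WT, 8.18 and 7.82 in Het, and 8.58 and 8.19 in Hom. The WT and Het levels with NMyc lie above those genotypes' Ctrl levels, whereas in Hom the vectors overlap. The NMyc effect was 0.75 in WT (adjusted p = 0.0165), 0.80 in Het (adjusted p = 0.0117) and 0.02 in Hom (adjusted p = 0.972). In Hom it was −0.30 without the array labelled Hom-Ctrl replicate 1 and 0.34 without Hom-Ctrl replicate 2, so its sign turned on which of the 2 arrays was kept, and neither value was called (adjusted p = 0.523 and 0.412). In WT the call was lost in 3 of 22 alternatives (without WT-Ctrl replicate 2 or either WT-NMyc array), with differences of 0.67 to 0.86 over all 22. In Het the call was lost in 1 (without Het-NMyc replicate 1), with differences of 0.62 to 0.98. The sample codes in the labels form 3 consecutive runs, which the labels do not call batches. Within the 2 runs that hold Hom-Ctrl, Slc25a23 was 0.71 and 1.70 higher in Hom than in WT, and 0.71 and 1.36 higher than in Het.

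**Figure D5:**
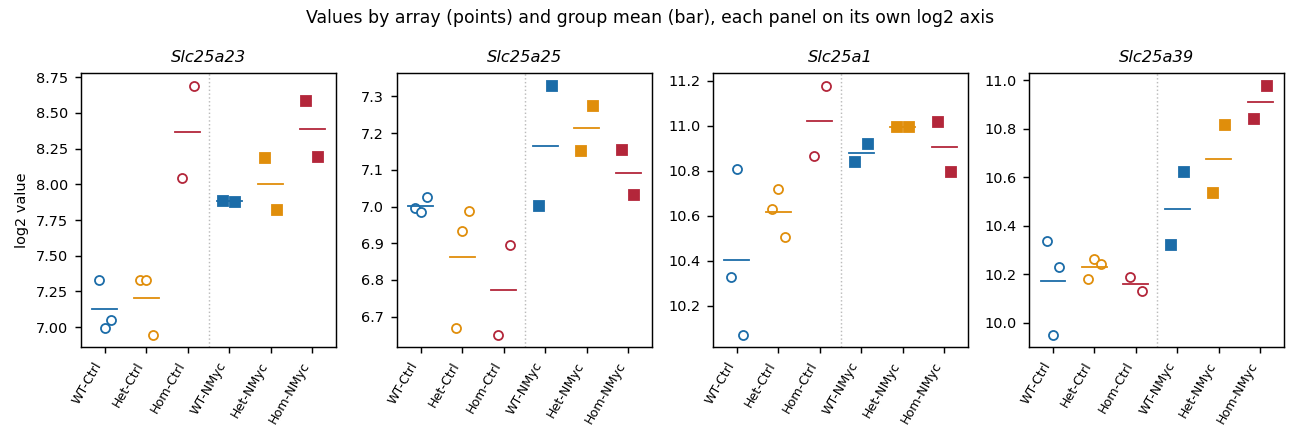
Log2 values of Slc25a23, Slc25a25, Slc25a1 and Slc25a39 are plotted by group, with 1 point per array (open circles Ctrl, filled squares NMyc) and a bar at the group mean. Both Hom-Ctrl arrays of Slc25a23 (8.05 and 8.69) are above the other Ctrl arrays and within or just beyond the range of the NMyc arrays (7.82 to 8.58).

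The citrate carrier Slc25a1 was next, at 10.33, 10.81 and 10.07 in WT-Ctrl and 10.86 and 11.18 in Hom-Ctrl. The difference of 0.62 (SE 0.19) was not called (adjusted p = 0.0848), nor was 0.78 without the array labelled Hom-Ctrl replicate 1 (adjusted p = 0.099). Including Slc25a23, 6 members had an unadjusted p under 0.05 for Hom minus WT and 5 for Hom minus Het. Whether these counts exceed the share over all probe sets was not tested. Het did not differ from WT in any member by limma's call with Ctrl (0 calls, 0% of all probe sets, 0 members at an unadjusted p under 0.05). The smallest p-values were those of Slc25a16 (0.26) and Slc25a10 (0.23) on the higher side, and Slc25a27 (−0.24) and Slc25a4 (−0.21) on the lower.

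With NMyc in all cells, the genotypes gave 0 calls among the members and 0% among all probe sets in each of the 3 pairs. For Hom minus WT, 5 members had an unadjusted p under 0.05: Slc25a3, Slc25a15, Slc25a23, Slc25a39 and Slc25a40. The share of all probe sets at that threshold was not counted here either. The smallest p-values were those of Slc25a15 at 0.63 (SE 0.19, adjusted p = 0.384) and Slc25a39 at 0.44 (SE 0.17, adjusted p = 0.525), and on the lower side Slc25a18 at −0.41 and Slc25a27 at −0.20. For Hom minus Het 1 member had an unadjusted p under 0.05, Slc25a3 at 0.35 (SE 0.15, adjusted p = 0.978), followed by Slc25a15 at 0.38, with Slc25a53 at −0.27 and Slc25a41 at −0.25 on the lower side. For Het minus WT there were 0, with Slc25a54 (0.30), Slc25a15 (0.24), Slc25a26 (−0.28) and Slc25a37 (−0.15) having the smallest p-values.

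Carriers reach the inner membrane through the outer membrane pore, small chaperones between the membranes and the TIM22 insertase. Of 12 genes of this route, none of them a Slc25a gene, 11 rose with NMyc and 0 fell, with a median of 0.80. The called share is 91.7%, against 33.6% of all probe sets (18.2% rose and 15.5% fell). Tomm40, the pore, rose by 1.53, Timm10, a small chaperone, by 1.11 and Timm29, a TIM22 subunit, by 1.06, while Timm10b differed by 0.04 and was not called. Of 24 other genes for transport across mitochondrial membranes, 10 rose and 3 fell (median 0.11), a called share of 54.2%, against the same 33.6%. Sfxn1, a serine carrier of the inner membrane, rose by 1.06 and Vdac2, an outer membrane pore, by 0.53, while Mcu, the calcium uniporter's pore, fell by 0.44.

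Marker genes of other blood cells moved with the vector. Over all probe sets, 18.2% rose and 15.5% fell with NMyc, beside which the counts below are to be read. In bulk samples, fewer cells of a type and less RNA per cell cannot be told apart. Of 9 monocyte and macrophage markers 0 rose and 8 fell with NMyc, and their summed linear level was 10290 to 18880 on the Ctrl arrays and 4072 to 4825 on the NMyc arrays. All 7 megakaryocyte markers fell (4684 to 7256 against 1262 to 1392). Of 9 mast cell markers 1 rose and 8 fell (21280 to 31490 against 14760 to 18970), and of 11 neutrophil markers 3 rose and 7 fell (45510 to 57560 against 41070 to 45850). Of 7 erythroid markers, matched from 12 listed, 1 rose, Tfrc, the transferrin receptor, and 0 fell (1164 to 1641 against 1995 to 2710). That sum includes Tfrc, which read 7.83 to 9.31 on the Ctrl arrays and 9.84 to 10.73 on the NMyc arrays. Alas2, Epor, Ermap and Klf1 were above the negative 95th percentile on 0 arrays, Slc4a1 on 11 and Gata1 on 14. Of 6 progenitor markers 1 rose and 3 fell (5146 to 7669 against 4218 to 5397). Of 7 B lymphoid markers 1 rose and 1 fell, of 8 T and NK markers 0 rose and 1 fell, and of 8 stromal and endothelial markers 0 rose and 1 fell. Of these 23, Klrb1c, Ncr1 and Lepr were above the negative median on 0 arrays. Nkg7, of cytotoxic cells, and Pecam1, of endothelium and also of blood cells, were above the negative 95th percentile on all 14. The other 18 were above that percentile on 0 arrays. Among them Cd79a, Cd79b, Ebf1, Igll1, Pax5, Cd3e, Cd4, Col1a1, Col1a2 and Cxcl12 were above the negative median on all 14. With the Ctrl vector, 2 of 11 neutrophil markers and 2 of 9 monocyte and macrophage markers were lower in Hom than in WT. Higher were 2 of 9 mast cell markers, 1 of 6 progenitor markers (Gata2) and 1 of 8 T and NK markers (Nkg7, 1.02). Of all probe sets, 1.88% were lower and 2.03% higher in that comparison. The summed levels in Hom-Ctrl and WT-Ctrl were 45510 to 46570 and 51480 to 56560 for neutrophil markers and 10290 to 15850 and 15160 to 18880 for monocyte and macrophage markers. They were 27120 to 31490 and 21280 to 26230 for mast cell markers and 6846 to 7669 and 5146 to 5954 for progenitor markers. For T and NK markers they were 1847 to 2154 and 872.9 to 1546. In the progenitor sum Gata2 read highest, at 12.18 and 12.40 in Hom-Ctrl and 11.68, 11.88 and 11.51 in WT-Ctrl. Kit went the other way, at 9.54 and 9.40 in Hom-Ctrl and 10.09, 9.73 and 10.10 in WT-Ctrl. Of the 6 progenitor markers, 3 had a Hom minus WT difference above 0. Without the array labelled Hom-Ctrl replicate 1 the calls were 2 lower neutrophil markers, 3 lower monocyte and macrophage markers and 2 higher mast cell markers. Without Hom-Ctrl replicate 2 there was 1, a lower neutrophil marker. The part of these shifts in the carrier results was not tested.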

How the data were processed

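RNA of 14 HPC samples was read on Affymetrix whole-transcript arrays. The deposited values are log2 levels, 1 per probe set and array. The authors used Affymetrix Expression Console, according to the submitters' processing notes. The sources used here give neither its version nor its summary method or normalization, and the scale was inferred from the range (2.24 to 13.5). Scaling before deposit can remove a shift shared by most transcripts. The medians of the arrays spanned 0.198, and no scaling was added.

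Of 28846 probe sets, 6640 control sets, known by their IDs, were left out. Symbols came from the platform annotation and a RefSeq table (GRCm38.p6), which changed 0: 19572 sets have 1 symbol and 2634 are unnamed. limma 3.58.1 in R 4.3.3 fitted 6 group means to all arrays, checked on simulated data. P-values are two-sided, adjusted with Benjamini-Hochberg over 22206 sets, and measure the spread between samples that the labels call biological replicates. The number of arrays limits the precision.

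Named are the called members (up to 8 rises and 8 falls), fixed paralog pairs and, where 0 were called, the 2 smallest p-values of each direction. Slc25a46, Slc25a17 and other members named for their role fall outside that rule. Members, role lists and marker lists were chosen with earlier results of these data known. As a check of pairing, same-numbered samples' deviations correlated at −0.133 to 0.266. The 3 pairs of WT-Ctrl with Het-Ctrl lay at 0.235 to 0.266. Each of these pairs also shares a run of sample codes, so pairing by number and a shared run cannot be told apart there. With the replicate number as a block, Het minus WT with Ctrl also called 0 members. The main fit did not use the numbers as pairs. Of all 31 same-numbered pairs, 7 were over 0.1, and all 7 shared a run of sample codes. The deviations are from group means, so the 2 arrays of a group of 2 mirror each other. Pairs from such groups repeat the same value (WT-NMyc with Hom-NMyc, 0.1107 for both numbers) and are not separate observations. The alternatives were other scaling, filter, control, variance, run and replicate settings, and leaving out each array. Proteins were not used here.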

Additional observations from a re-analysis of the deposited data

How the results depend on the processing

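Of 22 alternatives, 14 left out 1 array each. Of the 109 member results followed, 6 changed sign under some alternative, and none of these was called on either side (Slc25a37 for the average and in WT, Slc25a23 in Hom, Slc25a18 in WT, and Slc25a4 and Slc25a27 for Het minus WT with Ctrl). For the average, 20 of the 21 averaged calls held under all 22, with Slc25a25 the exception. The number of members called ranged over the left-out arrays from 20 to 23 for the average, 6 to 14 in WT, 9 to 15 in Het and 10 to 13 in Hom. For Hom minus WT with Ctrl it ranged from 0 (without Hom-Ctrl replicate 2) to 2 (without WT-Ctrl replicate 2), and for Hom minus Het from 0 to 1. The member medians ranged over the left-out arrays from 0.10 to 0.16 for the average, 0.088 to 0.15 in WT, 0.17 to 0.24 in Het and 0.092 to 0.18 in Hom. Centring each array on its median moved the median to 0.19 for the average, 0.15 in WT and 0.18 in Hom. The code run as a block ended the calls of Slc25a25 for the average (limma adjusted p = 0.136) and Slc25a22 in Hom (0.0613), added Slc25a2 for the average (−0.29) and Slc25a39 in Het (0.46), and moved the median to 0.17 in Hom, and code runs 2 and 3 alone to 0.15 in WT. eBayes with trend and robust called 2 members for Hom minus WT with Ctrl. With the replicate block the counts were 23 for the average (17 rose and 6 fell), 13 for WT, 14 for Het and 13 for Hom. The median was then 0.13 for the average. Under that block Slc25a2 fell by 0.40 (limma adjusted p = 0.016). The cause of these shifts was not tested. A mean over probe sets per symbol was not run, since each member has 1. Dim members are limited by signal over background: 28 were not above the negative 95th percentile on all arrays, and 9 of them were called.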
